A study of Mus musculus with 6 samples.

Results

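The 10 genes described here encode the proteins through which aortic smooth muscle admits, releases and takes back calcium: the voltage-gated channel subunits Cacna1c, Cacna1d, Cacna1h, Cacnb2 and Cacnb3, the release channels Ryr2, Ryr3 and Itpr1, the reuptake pump Atp2a2 and its inhibitor Pln. They were taken from the deposited count table by gene symbol. All 10 were among its 53735 rows, and all 10 passed the filter on low counts that left 14145 rows for testing. Messenger RNA was compared between aortas of Mymsl knockout mice (KO, 3 libraries) and of wild-type mice (WT, 3 libraries). Mymsl is a long noncoding RNA gene. In both groups the RNA came from smooth muscle cells of the medial layer, and the labels list no treatment. Strain, age, sex, the kind of deletion and the number of mice behind a library are not stated in the labels. The series text speaks of 3 pairs of mice but does not say what libraries of equal number share. The p-values therefore measure the spread between libraries, which may be partly technical.

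Contraction of a smooth muscle cell is set by cytosolic calcium, which binds calmodulin and so switches on myosin light chain kinase. Calcium enters through L-type channels when the membrane depolarizes, and it leaves the sarcoplasmic reticulum through inositol trisphosphate receptors, which agonists of Gq-coupled receptors open, and through ryanodine receptors. The SERCA pump returns it to the reticulum, and phospholamban slows that pump until a kinase phosphorylates it.

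Library totals lay between 20048216 and 23243129 counts in KO and between 23506674 and 25521123 in WT. No row carried the name Mymsl. The row RP23-57D10.3 was the only one with 0 counts in every KO library and at least 10 in every WT library (314, 378 and 273 counts), and no row showed the opposite. Markers of the labelled cell type were abundant: 10 smooth muscle genes summed to between 41849 and 55749.5 CPM per library, where CPM is the count scaled to library size, with Acta2 first. Markers of other cells were present as well, at 561 to 889 CPM in KO and 492 to 620.3 CPM in WT for 12 endothelial genes and at 2349 to 4168 CPM in KO and 2566 to 3463 CPM in WT for 10 fibroblast genes. Mitochondrially encoded genes held 10% to 18.9% of KO counts and 5.66% to 9.02% of WT counts, the most in KO replicate 1.

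Upstream sequence was matched by symbol for 6 of the 10 genes in RefSeq's promoter windows on GRCm38.p6, with 11 start sites in all. The 250 bases before a start site are shown for Pln and Cacnb3, because these were the genes above 10 CPM with a positive fold change and because their upstream stretches differ in composition. The Pln stretch is chr10:53337436-53337685 on the plus strand, with 32.8% G and C. The stretch before the first of the Cacnb3 start sites is chr15:98632078-98632327 on the plus strand, with 56% G and C. Capitals mark the motif TATAAA.
Pln: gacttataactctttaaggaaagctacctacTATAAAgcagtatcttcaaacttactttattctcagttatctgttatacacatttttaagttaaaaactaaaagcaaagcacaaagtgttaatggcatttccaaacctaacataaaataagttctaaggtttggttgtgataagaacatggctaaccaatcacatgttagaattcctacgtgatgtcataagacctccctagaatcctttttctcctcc
Cacnb3: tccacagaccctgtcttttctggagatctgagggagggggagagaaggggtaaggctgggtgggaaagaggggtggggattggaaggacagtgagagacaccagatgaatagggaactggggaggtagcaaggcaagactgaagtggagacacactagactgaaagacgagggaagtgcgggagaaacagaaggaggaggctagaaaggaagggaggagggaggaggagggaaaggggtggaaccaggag
TATAAA occurred once before Pln, its first base lying 219 bases ahead of the start site, and not before this Cacnb3 start. Searched on either strand, TATAAA was found in 2 of the 11 stretches and in 12.4% of 32851 stretches of the same length over all genes, and the GC box GGGCGG in 4 of 11 against 32.7%. These 4 include the other Cacnb3 stretch, not printed, with 70.4% G and C and 3 GC box matches. The CArG box, the motif bound by serum response factor, was in 0 of 11 against 1.47% of all stretches. A match here is a letter pattern only, and gene counts do not tell which start site was used.

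The levels of the 10 genes spanned a wide range once divided by length, here the merged exon length over all GENCODE M21 transcripts of a gene. Atp2a2, the SERCA pump of muscle (chromosome 5, 122453513 to 122502225, minus strand, GRCm38 here and below), led with 149.6 ± 17.1 CPM per kb in KO and 176 ± 12.7 CPM per kb in WT (SD, n = 3 each). Itpr1, the inositol trisphosphate receptor (chromosome 6, 108213096 to 108551109, plus strand), followed with 21.8 ± 2.37 and 25.9 ± 3.11 CPM per kb in KO and WT. The pump was thus 6.79 times the next gene in WT per exon length, and these groups of libraries did not overlap.

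In WT, the next places per kb were held by Cacnb3 (10 CPM per kb), Cacna1c (6.15), Pln (5.98), Cacnb2 (3.35), Ryr2 (2.72), Cacna1d (1.76), Cacna1h (0.904) and Ryr3 (0.0582). Cacna1c and Pln overlapped between WT libraries, as did Cacnb2 and Ryr2, and Ryr2 and Cacna1d, so their order is not settled by the spread. In KO the means of Pln and Cacna1c stood the other way round, at 8.49 and 6.08 CPM per kb, with overlapping libraries. The ryanodine receptor Ryr3 was close to the limit of detection, with 7, 9 and 24 counts in KO replicates 1, 2 and 3 and 18, 50 and 14 in the WT replicates. The merged length counts exons that aortic transcripts may not use, such as those of the 27 annotated transcripts of Cacna1c. These levels per kb describe the whole gene and do not give the level of any single isoform.

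**Figure D1:**
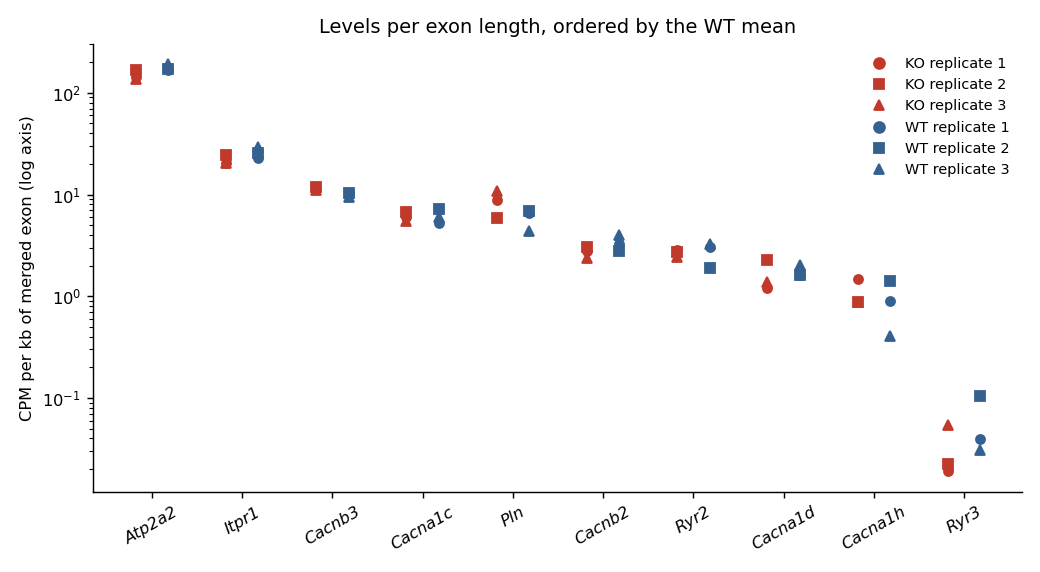
Level of each gene in CPM per kb of merged exon (log axis) for every KO library (red, left) and WT library (blue, right), genes ordered by the WT mean; symbols give the replicate number. Atp2a2 lies highest and Ryr3 lowest in both groups, and Cacna1c and Pln overlap.

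None of the 10 genes differed between KO and WT past the threshold. edgeR called 0 higher and 0 lower at an adjusted p of 0.05, against 0% of all 14145 tested rows called higher and 0.00707% called lower. At an unadjusted p of 0.05 it held 1 gene higher, Cacnb3, and 0 lower, where 6.8% and 7.76% of all rows were so placed. Which genes lay under this limit depended on the test. The unadjusted p of DESeq2 was 0.0547 for Cacnb3, 0.0283 for Atp2a2 and 0.0375 for Itpr1, both lower, and 0.0387 for Pln, higher. The share of all rows under 0.05 by that unadjusted test was not counted. DESeq2 gave an adjusted p to 8 of the 10 and called 0, against 0.709% of 8467 rows called higher and 1.64% called lower, and limma-voom called 0, against 0% higher and 0.00707% lower. Fold changes were below 0 for 7 of 10 genes, with a median log2 of −0.08, against 47.5% of all rows and a median of 0.01. The KO libraries all lay above the WT libraries for 1 gene of 10 and all below for 0, where 10.5% and 11.3% of all tested rows were separated in these ways; the shares for these genes are near that background or under it.

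**Figure D2:**
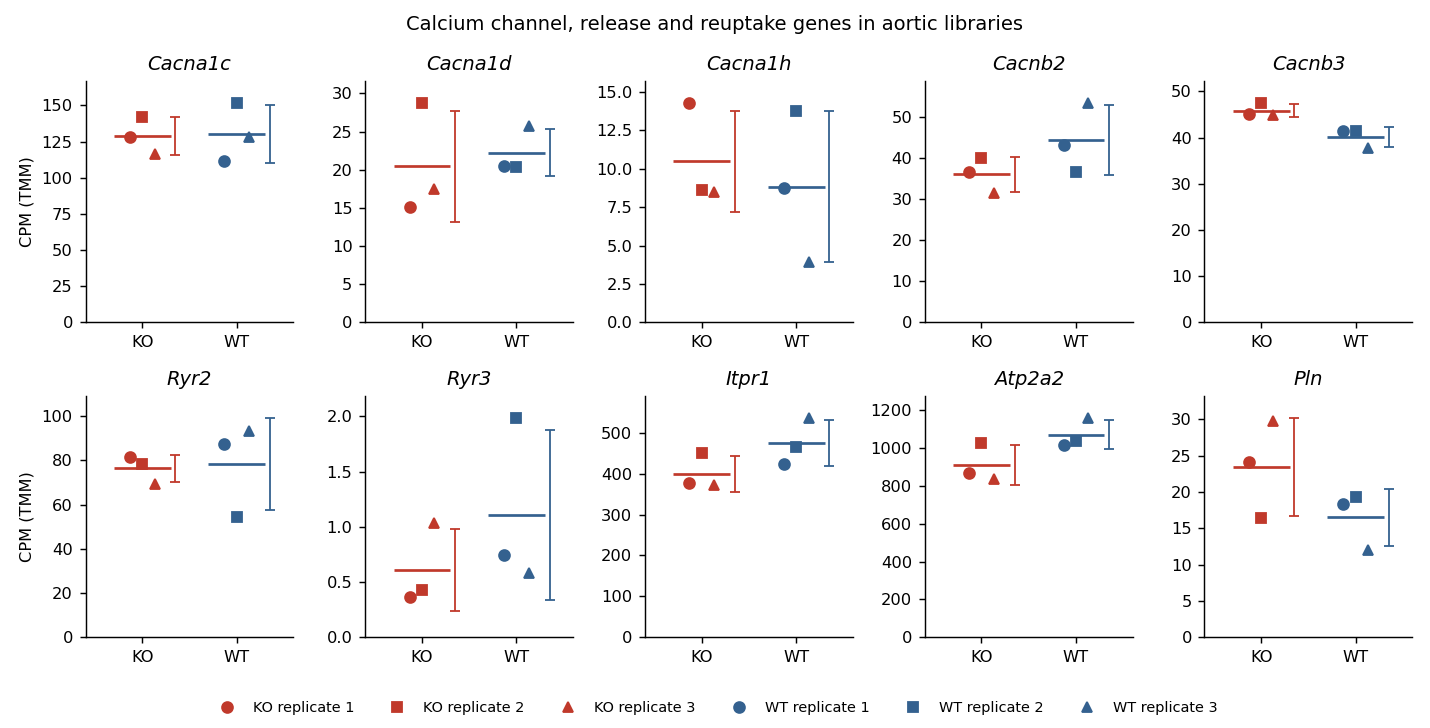
Normalized CPM of each gene in the 3 KO libraries (red) and the 3 WT libraries (blue); lines are means, bars are SD, and each axis starts at 0. Cacnb3 is the only gene whose groups do not overlap, with 44.9 to 47.5 CPM in KO against 37.7 to 41.5 CPM in WT.

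Among the pore-forming subunits of the voltage-gated channels, Cacna1c, which forms the L-type channel that carries most voltage-gated calcium entry in arterial muscle (chromosome 6, 118587240 to 119196418, minus strand), was nearly equal in the groups. It had 128, 142 and 116 CPM in KO replicates 1, 2 and 3 and 111, 152 and 128 CPM in WT replicates 1, 2 and 3. Its log2 fold change, KO over WT, was −0.02 ± 0.123 (SE; edgeR adjusted p = 0.961), and the highest and the lowest libraries were both WT. Without KO replicate 3 or WT replicate 2 its sign turned, to 0.05 and 0.11, and it was −0.09 without KO replicate 2 and −0.12 without WT replicate 1.

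Cacna1d, another L-type pore subunit, which opens at more negative voltages (chromosome 14, 30039939 to 30491455, minus strand), had 15.2, 28.8 and 17.4 CPM in KO and 20.5, 20.4 and 25.8 CPM in WT. KO replicates 1 and 3 lay below every WT library and KO replicate 2 above them all. The log2 fold change was −0.12 ± 0.231 (edgeR adjusted p = 0.829), and it was −0.45 with KO replicate 2 left out, 0.05 with KO replicate 1 left out and 0.00307 with WT replicate 3 left out. Leaving out KO replicate 3 gave −0.02. Cacna1h, a T-type pore subunit (chromosome 17, 25374285 to 25433783, minus strand), had 14.3, 8.65 and 8.52 CPM in KO and 8.76, 13.8 and 3.93 CPM in WT. It varied 3.63-fold between the highest and the lowest library, and its log2 fold change of 0.24 ± 0.416 (edgeR adjusted p = 0.806) was −0.10 without WT replicate 3 and 0.72 without WT replicate 2. Leaving out KO replicate 1 gave −0.04 and leaving out KO replicate 3 gave 0.37.

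The beta subunits, cytosolic partners that bring the pore to the cell surface and tune its gating, leaned in opposite directions. Cacnb3 (chromosome 15, 98630840 to 98644529, plus strand) had 45.1, 47.5 and 44.9 CPM in KO and 41.4, 41.5 and 37.7 CPM in WT, so every KO library was above every WT library. The means were 45.8 ± 1.43 CPM in KO and 40.2 ± 2.18 CPM in WT (SD, n = 3 each), which gives a log2 fold change of 0.19 ± 0.065 (SE; edgeR adjusted p = 0.279). This is the gene whose upstream stretch without TATAAA is printed above, and no annotated gene overlaps it. Cacnb2 (chromosome 2, 14603088 to 14987908, plus strand), the main beta subunit of heart muscle, had 36.5, 40.0 and 31.5 CPM in KO and 43.2, 36.5 and 53.3 CPM in WT. WT replicate 2 fell among the KO libraries, and the log2 fold change was −0.30 ± 0.147 (edgeR adjusted p = 0.379). That value was −0.14 without WT replicate 3 and −0.42 without WT replicate 2.

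**Figure D3:**
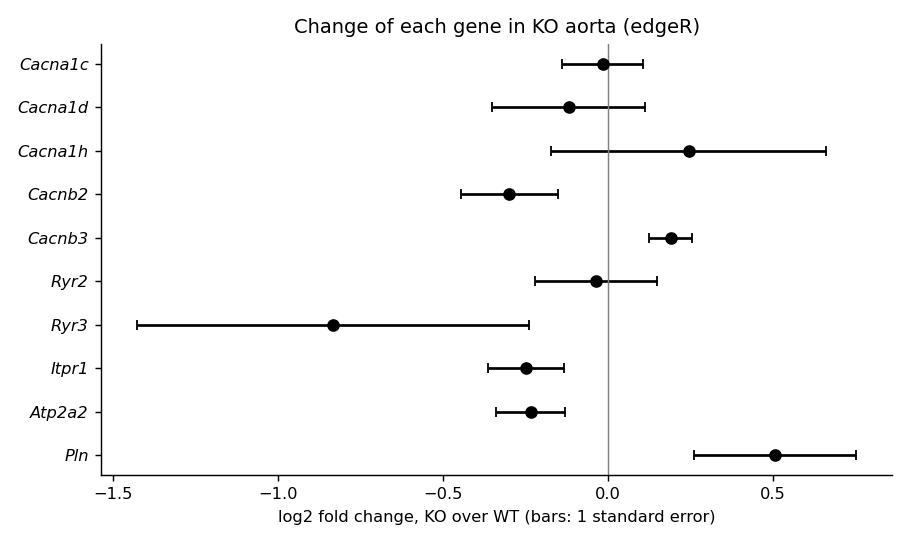
Log2 fold change of each gene, KO over WT, from edgeR, with bars of 1 standard error. Pln lies furthest right at 0.51 and Ryr3 furthest left at −0.83 with the widest bar, 0.594, and no gene passed the threshold.

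The release channels showed no difference past the threshold either. Itpr1 had 376, 450.0 and 373 CPM in KO and 424, 465 and 536 CPM in WT. KO replicates 1 and 3 were below all WT libraries and KO replicate 2 lay within them. Its means were 399.8 ± 43.5 CPM in KO and 475 ± 57.0 CPM in WT, and the log2 fold change was −0.25 ± 0.114 (edgeR adjusted p = 0.361). That value was −0.15 without WT replicate 3 and −0.34 without KO replicate 2.

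Ryr2, the ryanodine receptor of heart muscle that is also the main one in many arteries (chromosome 13, 11553102 to 12106945, minus strand), had 81.4, 78.2 and 69.5 CPM in KO and 87.5, 54.4 and 93.1 CPM in WT. The KO libraries lay inside the range of the WT libraries, and WT replicate 2 was the lowest of all. Its log2 fold change was −0.04 ± 0.185 (edgeR adjusted p = 0.94), with −0.24 without WT replicate 2, 0.11 without WT replicate 3 and values between these without any other library. The sign turned for 3 of the left-out libraries, WT replicate 3 among them. Ryr3, an isoform first known from brain (chromosome 2, 112631355 to 113217096, minus strand), averaged 0.61 ± 0.373 CPM in KO and 1.1 ± 0.768 CPM in WT. At these counts its log2 fold change of −0.83 ± 0.594 (edgeR adjusted p = 0.52) rested on WT replicate 2, without which it was −0.10, and it was −1.47 without KO replicate 3.

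On the side of reuptake, Atp2a2 was lower and Pln higher in KO by their means, neither past the threshold. Atp2a2 had 866, 1028 and 835 CPM in KO and 1016, 1036 and 1159 CPM in WT. KO replicate 2 reached the level of the WT libraries, and KO replicates 1 and 3 did not. The means were 909 ± 104 and 1071 ± 77.5 CPM in KO and WT, a log2 fold change of −0.24 ± 0.105 (edgeR adjusted p = 0.353). That fold change was −0.17 without WT replicate 3 and −0.33 without KO replicate 2.

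Pln (chromosome 10, 53337667 to 53345987, plus strand), which encodes phospholamban, had 24.1, 16.3 and 29.8 CPM in KO and 18.3, 19.2 and 12.0 CPM in WT. KO replicates 1 and 3 were above all WT libraries and KO replicate 2 was below WT replicates 1 and 2. Its means were 23.4 ± 6.76 CPM in KO and 16.5 ± 3.95 CPM in WT, and the log2 fold change was 0.51 ± 0.246 (edgeR adjusted p = 0.376). That value was 0.29 without KO replicate 3, 0.33 without WT replicate 3 and 0.71 without KO replicate 2. Cep85l is annotated across Pln on the opposite strand (log2 fold change −0.15 ± 0.1), and how the counting used strand is not stated. The same limit holds for Cacna1c with Dcp1b (0.26 ± 0.08), Cacna1d with Chdh and Dcp1a, Cacna1h with Tpsg1 and Ryr3 with Aven. Atp2a2, Cacnb2, Itpr1 and Ryr2 overlap other annotated genes on both strands, whose changes are not given here.

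The smooth muscle marker sum was low in the same KO replicates as Atp2a2 and Itpr1. The 10 markers summed to 41849, 55749.5 and 45342 CPM in KO replicates 1, 2 and 3 and to 50598, 53981 and 53148 CPM in the WT replicates, so the same KO replicates 1 and 3 were low. The sum was highest in KO replicate 2, while Atp2a2 and Itpr1 were highest in WT replicate 3. In bulk RNA, fewer cells of a type and less RNA per cell cannot be told apart. Per 1000 CPM of these markers, a ratio formed after the values had been seen, Atp2a2 stood at 19.2 ± 1.31 CPM in KO and 20.4 ± 1.33 CPM in WT, a log2 difference of −0.09, and Itpr1 at 8.43 ± 0.488 and 9.03 ± 0.93 CPM in KO and WT, a difference of −0.10. Both differences are smaller than the fold changes above and within the spread of the libraries. Dividing by this sum moved all the genes described here upward, with Pln at 0.65, Cacna1c at 0.14 and Ryr2 at 0.15. It thus enlarged positive differences and shrank or turned negative ones. The part of smooth muscle content in these differences was not tested. KO replicates 1 and 3 also held larger mitochondrial shares of counts, 18.9% and 13%, than KO replicate 2, at 10%. Their fibroblast marker sums were larger too, 4168 and 3655 CPM against 2349 CPM. The part of these was not tested either. Cacnb3, already higher in every KO library before the division, stood at 0.973 ± 0.114 CPM in KO and 0.765 ± 0.055 CPM in WT. The log2 difference was 0.34. Since the low sums of KO replicates 1 and 3 raise this ratio, it is not a separate result.

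Endothelial markers shared their highest and their lowest library with Pln. The 12 listed genes summed to 589, 561 and 889 CPM in KO and 620.3, 527 and 492 CPM in WT; 10 of 12 had a fold change above 0, and none was at 0 in every library. KO replicate 3 was highest and WT replicate 3 lowest for Pln and for this sum alike. Fat markers had the same extremes, with sums of 215, 176 and 312 CPM in KO and 296, 195 and 140.3 CPM in WT, and 9 of 10 genes above 0. In KO replicate 1, Pln was above every WT library, while both sums were below WT replicate 1. The sums of macrophage and leukocyte markers (9 of 9 tested genes above 0) and of fibroblast markers (8 of 10) were lowest in KO replicate 2 instead. The part of any of these cells in the difference of Pln was not tested.

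**Figure D4:**
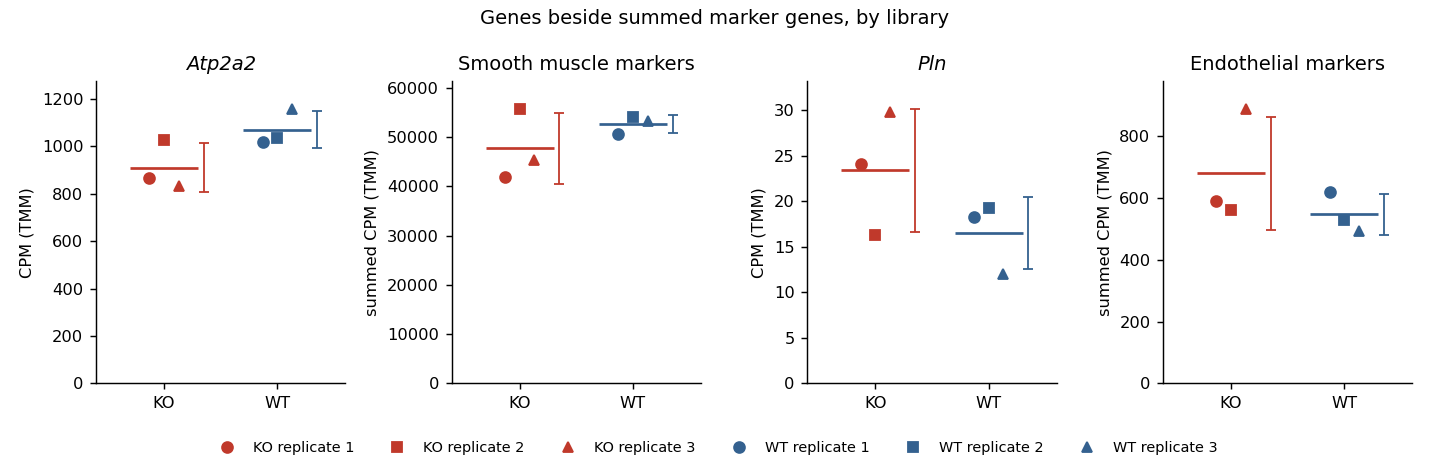
CPM of Atp2a2 and Pln beside the summed CPM of 10 smooth muscle and 12 endothelial marker genes, for each KO library (red) and WT library (blue), with lines at means and SD bars. Atp2a2 and the smooth muscle sum are low in KO replicates 1 and 3, and Pln and the endothelial sum are highest in KO replicate 3.

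Heart muscle was examined because Ryr2, Atp2a2, Pln and Cacnb2 are abundant there and the aortic root borders on it. Its 22 listed markers summed to 178, 140.3 and 129 CPM in KO and 123, 143 and 157 CPM in WT. Xirp1 held 39.3% of that sum in KO replicate 1 and 66.6% to 78.2% in the other libraries. The 21 markers without Xirp1, a sum formed after the values had been seen, gave 108, 46.9 and 34.9 CPM in KO and 39.3, 44.7 and 34.3 CPM in WT, so KO replicate 1 stood apart. The myosin heavy chain Myh6 was high in KO replicate 1, with 13.4, 3.06 and 0.433 CPM in KO and 0.374, 1.63 and 0.414 CPM in WT. Nppb and Nkx2-5 had 0 counts in every library, and 10 of 13 tested markers had a fold change above 0. In KO replicate 1, Ryr2 had 81.4 CPM, the highest of the KO libraries and within the range of WT, and Atp2a2, Pln and Cacnb2 had the middle value of the KO libraries. The part of heart muscle in the values of these 4 genes was not tested.

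Ratios of counts within a library, which do not depend on library size, were compared for 9 pairs by two-sided exact permutation, whose smallest possible p is 0.1 with 3 libraries a group. The ratio of the beta subunits was the only 1 of the 9 whose groups did not overlap. Among all tested rows, taken singly, 10.5% were separated with KO above and 11.3% with KO below. Cacnb3 was already separated by itself, so this ratio is not a separate result. For every 100 counts of Cacnb3 there were 80.8, 84.3 and 70.2 counts of Cacnb2 in KO and 104, 87.9 and 142 in WT, a log2 difference of −0.48 (exact permutation p = 0.1, adjusted over 9 pairs 0.643). Pln had 2.79, 1.59 and 3.57 counts for every 100 of Atp2a2 in KO and 1.80, 1.86 and 1.03 in WT. KO replicate 2 fell among the WT libraries, and the log2 difference was 0.73 (exact permutation p = 0.3, adjusted 0.643). The other 7 pairs overlapped, with adjusted p of 0.643 or 0.7 by the same exact permutation test, and their log2 differences lay between −0.56 for Ryr3 to Itpr1 and 0.80 for Ryr2 to Ryr3.

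Around these genes, 92 others that handle calcium were listed by role. Of these, 90 were in the table and 69 were tested. edgeR called 0 in either direction, and 38 had a fold change below 0 and 31 above it, with a median log2 of −0.02. DESeq2 gave an adjusted p to 50 of them and called 1 lower and 0 higher, which is 2% and 0% of the 50, near the 1.64% and 0.709% of all rows given above. KO libraries lay all above WT for 4 of the 69 and all below for 8, or 5.8% and 11.6%, against 10.5% and 11.3% of all tested rows. The share below was thus near that background and the share above was under it.

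The gene DESeq2 called was Slc8a1, the sodium-calcium exchanger that extrudes calcium across the plasma membrane. It had 20.3, 31.6 and 27.3 CPM in KO and 38.0, 34.6 and 51.6 CPM in WT, and no KO library reached a WT library. Its log2 fold change was −0.65 ± 0.195 in edgeR (adjusted p = 0.275) and −0.66 in DESeq2 (adjusted p = 0.0487). In the same role, the calcium pump Atp2b2 had 3.97, 3.25 and 11 CPM in KO and 3.07, 2.98 and 1.95 CPM in WT, also without overlap (edgeR log2 fold change 1.19 ± 0.467, adjusted p = 0.317), with KO replicate 3 far above the rest; without that library the log2 fold change was 0.43. Atp2b4 (−0.12) and Slc8a2 (−0.07) differed little.

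Of 14 other auxiliary channel subunits 7 were tested, 3 of them below 0, and 6 Cacng genes had 0 counts throughout. Cacna2d1, the alpha2delta subunit that carries the pore to the membrane, had 163, 190.3 and 189 CPM in KO and 225, 234 and 202 CPM in WT. Its groups did not overlap, and its log2 fold change was −0.28 ± 0.089 (edgeR adjusted p = 0.277). Of the 3 other pore subunits tested, T-type Cacna1g had −0.51 ± 0.284. Among 6 tested inhibitors and adaptors of the channels, Gem, a small GTPase that restrains L-type current, had 33, 20.4 and 29.0 CPM in KO and 44.0, 28.2 and 61.7 CPM in WT (log2 fold change −0.70 ± 0.284, edgeR adjusted p = 0.325). The fold change of Gem was −0.39 without WT replicate 3 and −0.95 without WT replicate 2. Stac, which binds L-type channels, had −0.47 ± 0.202. Stac3 had 0.63 ± 0.274 at few counts, 20, 20 and 23 in KO and 13, 19 and 15 in WT. Neither passed (edgeR adjusted p = 0.344 for each).

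The other release channels, Itpr3 (log2 fold change 0.52 ± 0.241) and Itpr2 (0.16 ± 0.129), were above 0 where Itpr1 was below it, and neither passed. Without KO replicate 3 they were 0.24 and 0.04, and without KO replicate 2 they were 0.75 and 0.28. Among 17 tested partners of release channels and proteins of the store, 11 were below 0. Asph, whose locus encodes the reticulum protein junctin, had 299.6, 384 and 299 CPM in KO and 427, 353 and 458 CPM in WT (−0.33 ± 0.133, edgeR adjusted p = 0.323). The calcium-binding store protein Casq2 was low, with 2.84, 1.62 and 3.07 CPM in KO and 1.83, 1.35 and 0.373 CPM in WT (1.08 ± 0.507, or 0.66 without WT replicate 3 and 1.54 without WT replicate 1). The chaperone Canx (−0.14) and Ahcyl1 (−0.13), which binds the inositol trisphosphate receptor, were at lower CPM in each KO library than in all WT libraries.

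**Figure D5:**
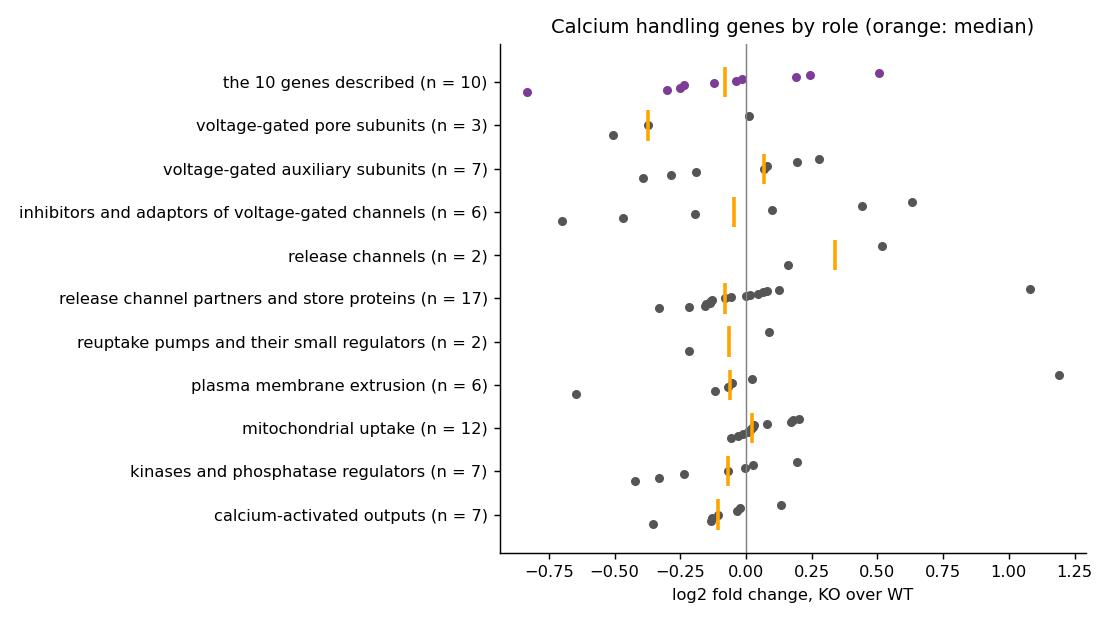
Log2 fold change, KO over WT, of each tested calcium handling gene, by role, with orange bars at medians; the 10 genes described are in purple. Medians lie between −0.37 for 3 other pore subunits and 0.34 for 2 other release channels, and 2 points stand far right, Casq2 at 1.08 and Atp2b2 at 1.19.

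Of 7 other reuptake pumps and small regulators 2 were tested. The SERCA isoform Atp2a3 had 0.09 ± 0.142, and Tmx1, a reticulum oxidoreductase that acts on SERCA, −0.22 ± 0.091. Sarcolipin, Sln, an inhibitor of SERCA in atrial muscle, had 69, 1 and 0 counts in KO replicates 1, 2 and 3 and 0, 3 and 1 in the WT replicates. Its counts thus came almost wholly from KO replicate 1, the library with most Myh6, and it was too low to be tested.

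All 12 genes of mitochondrial calcium uptake were tested, with 9 above 0 and a median of 0.02. Smdt1, a subunit of the uniporter, had 65.5, 62.4 and 65.7 CPM in KO and 61.1, 55.2 and 54.5 CPM in WT (0.18 ± 0.064, edgeR adjusted p = 0.283), and the pore Mcu had 0.20 ± 0.103. Both were higher in every KO library, the group with the larger mitochondrial share of counts, whose part in this was not tested. Of 7 tested kinase and phosphatase regulator genes 5 were below 0, among them Prkacb, a catalytic subunit of protein kinase A, which phosphorylates phospholamban (−0.23 ± 0.071, edgeR adjusted p = 0.277), and Prkg1, the cyclic GMP-dependent kinase (−0.42 ± 0.18). Of the 7 genes of calcium-activated outputs 6 were below 0. Kcnma1, the pore of the large-conductance calcium-activated potassium channel, had 92.6, 115 and 107 CPM in KO and 127, 146 and 129.6 CPM in WT, without overlap (−0.35 ± 0.096). It missed the threshold in edgeR (adjusted p = 0.264) and in DESeq2 (adjusted p = 0.0517), and myosin light chain kinase Mylk had −0.13 ± 0.112.

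The rows most like Pln and Cacna1d, the genes above 10 CPM with the largest spread over libraries, were sought by the smallest root mean square difference of centred log2 CPM over the 6 libraries, among 8993 other rows of at least 10 CPM. For Pln these were Prex2 (0.107), the adhesion receptor Adgrf5 (0.12) and the cyclin Ccnd1 (0.125). Adgrf5 had 37.8, 29.0 and 49.9 CPM in KO and 35.5, 33.9 and 18.1 CPM in WT, with the same extremes, KO replicate 3 and WT replicate 3. For Cacna1d they were Fgf1 (0.0957), the potassium channel Kcnd3 (0.0962) and the phosphatase Dusp10 (0.103). Kcnd3 had 27.4, 43.7 and 30.2 CPM in KO and 36.6, 34.6 and 39.3 CPM in WT, again highest in KO replicate 2 and lowest in KO replicate 1. With 6 libraries and so many rows, a close match is a description of these libraries only.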

How the data were processed

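Read counts per gene, deposited by the authors as whole numbers without normalization, were analysed for 6 libraries. Trimmomatic 0.36, STAR 2.6.0c, featureCounts (Subread 1.6.1) and build GRCm38 were used, per the submitters' processing notes; per the labels' protocols, libraries were stranded and selected for mRNA. Annotation release, strand setting and treatment of reads with several positions are not stated. edgeR 4.0.16 (R 4.3.3) and its quasi-likelihood test were fitted with genotype as the only term, TMM normalization and filterByExpr (minimum count 10, minimum total 15), adjusted by Benjamini and Hochberg over all 14145 tested rows, threshold 0.05. The fit was also run on simulated counts, and no result given here rests on that run. Levels are TMM-normalized CPM. Alternatives were DESeq2 1.42.0, its size factors, limma-voom (limma 3.58.1), no filter, removal of hemoglobin and mitochondrially encoded genes, a block for replicate number, and omission of each library in turn. Coordinates and exon lengths came from GENCODE M21 (GRCm38) by symbol. Members and lists were chosen with earlier results of these data known. The rule for named genes took all 10 genes, the up to 4 tested genes of smallest p per role (not all are printed), marker sums and the nearest rows; Sln, Myh6, Nppb, Nkx2-5 and the overlapping genes were chosen after their values were seen. Replicates differed by more than sampling noise, with chi-square per gene between 15.0 and 69.3. Counting error is only part of the spread, since PCR copies were not marked.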

Additional observations from a re-analysis of the deposited data

How the results depend on the processing

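The counts of 0 of the 10 genes called higher and 0 called lower held under every alternative run. The ratios could not pass the threshold with 3 libraries a group, whatever the setting, so their count says nothing about stability. The smallest adjusted p of any of the 10 was 0.239, for Atp2a2 in DESeq2. Over all rows, where edgeR called 0 higher and 1 lower, DESeq2 called 60 higher and 139 lower and no filter gave 5 higher and 4 lower; leaving out single libraries gave 0 to 2 higher and 0 to 1 lower. Among other calcium handling genes, DESeq2 called 1 lower where edgeR called 0. The median of the 10 genes was −0.09 with DESeq2 and lay between −0.21 (without KO replicate 2) and 0.00519 (without KO replicate 3) with single libraries left out. The sign turned for 4 of the 10 genes, only when a library was left out. Ranges over left-out libraries were −0.12 to 0.11 for Cacna1c, −0.45 to 0.0526 for Cacna1d, −0.10 to 0.72 for Cacna1h and −0.24 to 0.11 for Ryr2. For others of the calcium genes they were −0.0558 to 0.21 for Atp2a3, −0.23 to 0.29 for Cacna1a (−0.0605 with limma-voom), −1.48 to 0.17 for Cacna1e, −0.61 to 0.0157 for Camk2b and −0.13 to 0.0322 for Slc8a2, and for ratios −0.36 to 0.0274 for Cacna1d to Cacna1c and −0.094 to 0.69 for Cacna1h to Cacna1c. The causes were not tested.

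Mice are described in 3 pairs, but nothing states what libraries of equal number have in common. For that reason the numbers were not taken to pair libraries. Deviations from the group means correlated at 0.12, 0.12 and −0.05 for replicates 1, 2 and 3, and at −0.29 to 0.16 for unequal numbers. Centring within groups of 3 constrains these values, so they cannot decide whether libraries were paired. With the replicate block, 0 rows were called lower, against 1 without it, and 0 higher; Cacna1a had −0.0464. Depth limits Ryr3, Sln and the low markers.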
